A study of Homo sapiens with 18 samples.

Results

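The endoplasmic reticulum (ER) chaperones fold proteins that enter the secretory pathway, and some of them bind glycans or form disulfide bonds. The 10 genes described here were listed by symbol as classical members of this machinery, and all 10 were found among the 61487 genes counted in each library. They are HSPA5, HYOU1, DNAJB9 and SDF2L1 of the ER Hsp70 system, the ER Hsp90 gene HSP90B1, the lectin chaperone genes CALR and CANX, and the disulfide isomerase genes PDIA3, PDIA4 and PDIA6. The question was how their mRNA and their ribosome occupancy varied across cells with and without a peptide knockout.

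Most secreted and membrane proteins enter the ER unfolded, where Hsp70 binds exposed hydrophobic stretches in cycles driven by ATP, lectin chaperones hold proteins through their glycans, and isomerases form and reshuffle disulfide bonds. When unfolded protein accumulates, sensors in the ER membrane release the unfolded protein response, and its transcription factors ATF6 and XBP1 raise chaperone transcription through ER stress response elements in the promoters. Cancer cells with a large secretory load are known to depend on this system.

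NCI-H1975, an established human cell line from a lung adenocarcinoma, gave 18 libraries, which fall into 6 groups of 3. In ribosome profiling, nuclease digestion leaves the RNA stretches covered by ribosomes (footprints), whose reads are counted per gene, and matched mRNA libraries were made from oligo(dT)-enriched RNA. The sgDAMP cells carry a CRISPR knockout of DAMP, a micropeptide that the series title assigns to the lncRNA gene DSP-AS1; sgControl cells are the CRISPR control; Scramble cells, named by that word alone, were used to look for lncRNAs with coding potential. No other allele or agent is named, apart from 100 µg/ml cycloheximide before the harvest of cells for footprints. The labels do not say whether the knockout is 1 clone or a pool, or whether numbered replicates are separate cultures, so p-values measure only the spread between these libraries.

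Each mRNA library held 17171514 to 17455799 gene counts in sgDAMP, 17098397 to 17464782 in sgControl and 10859527 to 12424884 in Scramble. Footprint libraries held 6207783 to 6864945 counts in sgDAMP, 6845899 to 7840852 in sgControl and 1035159 to 1302852 in Scramble. The Scramble libraries stood apart: footprint reads assigned to no gene made up 69.7% to 70.0% in sgDAMP, 65.8% to 66.4% in sgControl and 95.7% to 95.8% in Scramble. Protein-coding genes took 76.3% to 76.6% of footprint counts in sgDAMP, 78.9% to 79.3% in sgControl and 6.37% to 20.2% in Scramble. For most genes the 3 footprint libraries of sgDAMP differed from each other by no more than sampling noise, as did the 3 of sgControl, so each set was counted as 1 sample and its values carry no SD. DSP-AS1 had 0, 1 and 1 footprints in sgDAMP libraries, against 175, 176 and 216 in sgControl libraries, while its mRNA counts were 319 to 336 in sgDAMP and 299 to 328 in sgControl. The epithelial keratin genes KRT8 and KRT18 were abundant in all groups, the epithelial markers EPCAM and KRT19 and the alveolar markers NKX2-1, SFTPB, SFTPC and NAPSA averaged under 1 CPM, and the leukocyte genes PTPRC and CD3E had 0 mRNA counts.

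The promoters of most of these genes hold the element through which the unfolded protein response is known to act, and the sequences are shown as a description. The element is known from chaperone promoters, and these genes were listed as classical chaperones. The share with a match is therefore not independent support for the list. Promoter windows from RefSeq (GRCh38.p14), running from 250 bases before to 50 bases after each annotated start, were available for 9 of the 10 genes, PDIA3 being the other one. On both strands a script searched for the ER stress response element ERSE, spelled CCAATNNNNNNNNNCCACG, and for its shorter form ERSE-II, spelled ATTGGNCCACG (N stands for any base). No chaperone window held a match of both kinds. ERSE was found in HSPA5, HSP90B1, CALR, CANX and PDIA6, and ERSE-II in HYOU1 and SDF2L1. At least 1 match was thus held by 7 of 9 genes and by 9 of their 14 windows. Over all RefSeq promoters it was 44 of 27305 genes (0.161%) and 46 of 35116 windows (0.131%). Among protein-coding genes alone it was 36 of 15313 genes (0.235%) and 38 of 21580 windows (0.176%). PDIA4 and DNAJB9 had no match in these windows. A match is a run of letters and not a measured binding site.

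The matches are printed 5′ to 3′ on the strand on which they read as the motif, with the fixed letters of the motif in capitals. They lie at chr9:125241391-125241409 (minus strand) for HSPA5, chr12:103930216-103930234 (plus) and chr12:103930321-103930339 (minus) for HSP90B1, chr19:12938384-12938402 (minus) for CALR, chr5:179698778-179698796 (plus) for CANX and chr2:10812853-10812871 (minus) for PDIA6. The shorter form lies at chr11:119057274-119057284 and chr11:119057380-119057390 (both plus) for HYOU1 and at chr22:21642114-21642124 (minus) for SDF2L1.
HSPA5: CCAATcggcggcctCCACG
HSP90B1: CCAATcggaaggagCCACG
HSP90B1: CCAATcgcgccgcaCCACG
CALR: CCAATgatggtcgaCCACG
CANX: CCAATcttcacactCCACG
PDIA6: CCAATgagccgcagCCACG
HYOU1: ATTGGaCCACG
HYOU1: ATTGGaCCACG
SDF2L1: ATTGGtCCACG

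The match in HSPA5 begins 66 bases upstream of the start site, and the matches in HYOU1 begin 79 and 185 bases upstream with the same letters and the orientation opposite to the gene. The whole windows of these genes follow in the direction of the gene, at chr11:119057156-119057455 (minus) for HYOU1, the chaperone with the largest footprint difference below, and at chr9:125241294-125241593 (minus) for HSPA5, a classical ERSE promoter. Capitals mark the letters of the motifs, which read CGTGGtCCAAT in the HYOU1 window because the match is on the other strand.
HYOU1: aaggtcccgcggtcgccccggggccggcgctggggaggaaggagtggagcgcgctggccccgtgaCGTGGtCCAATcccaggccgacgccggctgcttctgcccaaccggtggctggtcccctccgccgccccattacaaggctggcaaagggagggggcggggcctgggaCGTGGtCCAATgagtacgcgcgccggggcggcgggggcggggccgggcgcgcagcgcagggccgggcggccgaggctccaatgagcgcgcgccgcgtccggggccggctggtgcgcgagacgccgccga
HSPA5: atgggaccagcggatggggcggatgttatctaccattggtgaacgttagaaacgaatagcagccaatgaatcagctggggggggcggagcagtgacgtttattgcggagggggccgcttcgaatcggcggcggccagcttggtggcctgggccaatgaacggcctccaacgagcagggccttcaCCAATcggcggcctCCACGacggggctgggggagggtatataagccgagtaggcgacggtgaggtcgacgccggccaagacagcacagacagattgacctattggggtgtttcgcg

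In mRNA, no chaperone passed the test between sgDAMP and sgControl cells. None of the 10 passed an adjusted p under 0.05 in edgeR's quasi-likelihood test with TMM scaling, and neither did any of the 14032 genes tested (0%). The DESeq2 Wald test called 12 genes, none a chaperone, and edgeR called 6 without the third sgControl library. At an unadjusted p under 0.05, the count was again 0 of 10 chaperones, against 741 genes (5.28%). The median log2 change of the chaperones was -0.10, beside 0.03 over all genes tested, with 3 chaperones above 0 and 7 below. In bulk RNA, fewer cells with a transcript and less of it per cell cannot be told apart.

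HSPA5 encodes BiP, the Hsp70 of the ER. Its mRNA stood at 239.9, 175 and 157 CPM (counts scaled by the library's total gene count) in sgDAMP libraries, 193, 153 and 201 CPM in sgControl libraries, and 1706, 1539 and 1707 CPM in Scramble libraries. The sgDAMP and sgControl libraries overlapped, and all 3 Scramble libraries lay far above both. The log2 change of sgDAMP over sgControl was -0.08 (SE 0.26, edgeR adjusted p = 0.947), and its sign turned under upper-quartile scaling (0.02) and total-count scaling (0.07).

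HYOU1 encodes GRP170, a large Hsp70 relative that serves BiP as a nucleotide exchange factor. Its mRNA stood at 154, 75.3 and 124 CPM in sgDAMP libraries, 177, 135 and 113 CPM in sgControl libraries and 319, 290.2 and 329 CPM in Scramble libraries. The second sgDAMP library was the lowest of all, and the other sgDAMP libraries lay within the sgControl range. The log2 change was -0.43 (SE 0.31, edgeR adjusted p = 0.862), and -0.64 to -0.19 with 1 library left out.

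DNAJB9 encodes ERdj4, a J-domain co-chaperone of BiP, and its mRNA was thinly covered in CRISPR cells. It had 100, 202 and 100 counts (5.82, 11.6 and 5.79 CPM) in sgDAMP libraries and 34, 67 and 173 counts (1.96, 3.92 and 9.91 CPM) in sgControl libraries, while Scramble libraries held 67.8, 62.9 and 64.4 CPM. The sgControl libraries spread more widely than the sgDAMP ones and overlapped them, and the log2 change was 0.46 (SE 0.49, edgeR adjusted p = 0.869), which became 1.19 without the third sgControl library and 0.04 without the second sgDAMP library. SDF2L1, an ER protein that associates with BiP and J-domain partners, stood at 51.8, 75.2 and 82.9 CPM in sgDAMP libraries, 74.6, 68.3 and 64.4 CPM in sgControl libraries and 31.5, 26.3 and 31.8 CPM in Scramble libraries. It was the only one of the 10 with its lowest mRNA level in Scramble, and its sgDAMP change was -0.11 on the log2 scale (SE 0.29, edgeR adjusted p = 0.941), or 0.02 under total-count scaling.

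HSP90B1 encodes GRP94, the Hsp90 of the ER, which completes the folding of selected clients such as integrins. Its mRNA stood at 50.8, 56.1 and 42.4 CPM in sgDAMP libraries, 27.7, 37.8 and 43.6 CPM in sgControl libraries and 862, 789.6 and 867 CPM in Scramble libraries. The lowest sgDAMP library fell inside the sgControl range, and the log2 change was 0.32 (SE 0.27, edgeR adjusted p = 0.862). The Scramble mean of 839.5 CPM stood beside 49.8 CPM in sgDAMP and 36.4 CPM in sgControl, without a test.

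CALR and CANX encode calreticulin, which is soluble, and calnexin, which spans the ER membrane; both bind glycoproteins that carry 1 remaining glucose. CALR mRNA stood at 398, 385 and 419.6 CPM in sgDAMP libraries, 525, 451 and 464 CPM in sgControl libraries and 515, 439.7 and 546 CPM in Scramble libraries. CALR was the only chaperone whose sgDAMP libraries all lay below all sgControl libraries; such a gap, in either direction, was found for 1557 of 14032 genes (11.1%), which is the share 1 of 10 has to be read against. Its log2 change was -0.40 (SE 0.26, edgeR adjusted p = 0.862). CANX mRNA stood at 217, 203 and 132 CPM in sgDAMP libraries, 124, 136 and 251 CPM in sgControl libraries and 1452, 1384 and 1305 CPM in Scramble libraries. One library in each CRISPR group went against its companions, and the log2 change of -0.02 (SE 0.30, edgeR adjusted p = 0.990) became 0.11 under total-count scaling and 0.27 without the third sgControl library.

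The mRNA of the isomerase genes overlapped between the CRISPR groups. PDIA3 (ERp57), the isomerase that works with calreticulin and calnexin, stood at 101, 87.1 and 81.2 CPM in sgDAMP libraries, 75.4, 77.3 and 90.5 CPM in sgControl libraries and 382, 340.4 and 414 CPM in Scramble libraries. PDIA4 (ERp72) stood at 168, 207 and 183 CPM in sgDAMP libraries, 184, 165 and 223 CPM in sgControl libraries and 339, 318 and 369 CPM in Scramble libraries. PDIA6 (P5), which also binds BiP, stood at 79.7, 111 and 66.2 CPM in sgDAMP libraries, 87.3, 69.1 and 95.7 CPM in sgControl libraries and 477, 441 and 492 CPM in Scramble libraries. For each of these genes the Scramble libraries lay above all others. The log2 changes were 0.01 for PDIA3 (SE 0.25, edgeR adjusted p = 0.993), -0.16 for PDIA4 (SE 0.26, edgeR adjusted p = 0.900) and -0.11 for PDIA6 (SE 0.28, edgeR adjusted p = 0.937).

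Across the conditions, Scramble cells gave the highest mean mRNA level for 9 of the 10 genes. In 8 of them all Scramble libraries lay above all sgControl libraries, while CALR overlapped and SDF2L1 was lower in Scramble. The share of all genes with such a gap between Scramble and sgControl was not counted. These counts can therefore not be read as particular to the chaperones. Together the 10 genes took 0.136% to 0.154% of protein-coding mRNA counts in sgDAMP libraries, 0.136% to 0.164% in sgControl libraries and 0.615% to 0.673% in Scramble libraries. The mRNA reads assigned to no gene made up 22.4% to 24.2% in sgDAMP, 22.2% to 23.9% in sgControl and 54.0% to 54.3% in Scramble libraries. The part of these library differences in the levels was not tested, and library set and condition cannot be told apart.

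**Figure D1:**
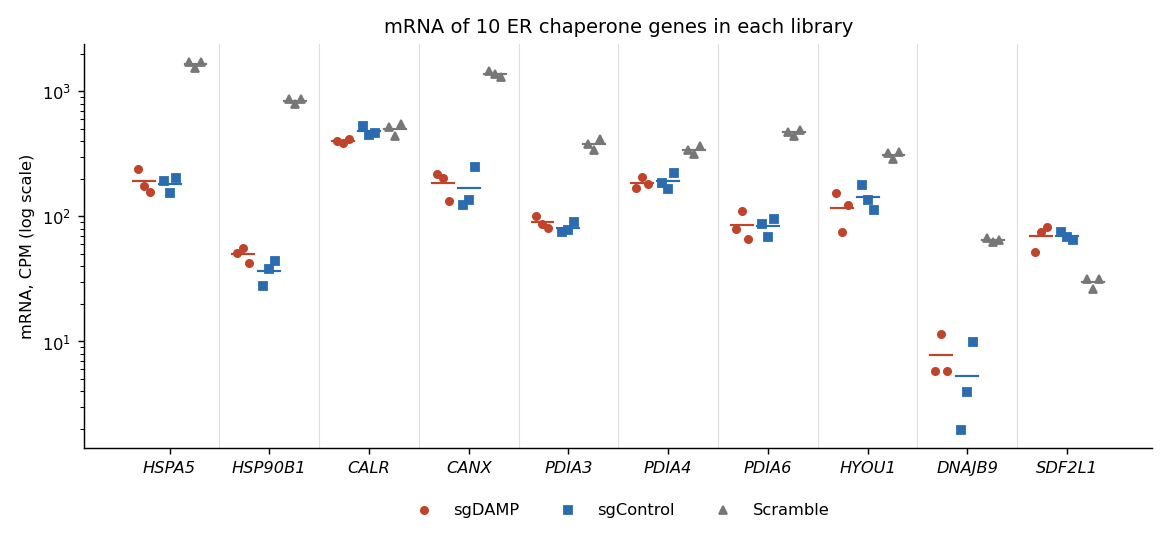
mRNA of the 10 ER chaperone genes in CPM on a log axis, with 1 point per library and a line at the mean of the 3 libraries of sgDAMP, sgControl and Scramble. The Scramble mean is the highest for 9 genes, with CALR libraries overlapping those of sgControl (HSPA5 averages 191, 182 and 1651 CPM in sgDAMP, sgControl and Scramble), and sgDAMP and sgControl libraries are apart for CALR alone.

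Ribosome footprints gave 1 large difference between sgDAMP and sgControl cells, in HYOU1. With each group's footprints summed and TMM scaling, and a change of at least 1.5 times as the call, 0 of the 10 chaperones were higher in sgDAMP, where 3018 of 16131 genes (18.7%) were, and 2 of 10 were lower, HYOU1 and DNAJB9, where 2510 genes (15.6%) were. The shares over all genes take in noncoding and thinly covered genes. The share among genes covered like the chaperones was not counted. With 1 sample a group there is no test, and the 95% intervals below are exact Clopper-Pearson intervals that cover counting error only. The median log2 ratio of the chaperones was -0.04, beside 0.01 over all genes. Levels per library are given in coding CPM, which is CPM relative to protein-coding counts alone, because the noncoding share differs so much in Scramble.

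HYOU1 had 184, 197 and 187 footprints in sgDAMP libraries and 3343, 3617 and 3984 in sgControl libraries, or 568 against 10944 in all. In coding CPM these were 38.8, 37.5 and 35.8 in sgDAMP, 616, 584 and 649 in sgControl, and 318, 406 and 289 in Scramble, from 76, 82 and 24 counts. All sgDAMP libraries lay far below every other library, and the Scramble libraries lay between. The ratio was 0.0501 (95% interval 0.0459 to 0.0545), a footprint level 20.0 times lower in sgDAMP; total-count scaling gave 0.0587. HYOU1 varied between the 3 sgControl libraries by more than counting error alone (chi-square per degree of freedom 10.2), a spread far smaller than the gap to sgDAMP.

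HYOU1 was not the most affected gene of these cells. It ranked 87 from the lowest ratio among 16131 genes, 20 among the 3098 genes with at least 1000 sgControl footprints and 14 among the 788 genes with at least 5000. In those last sets, 41 and 33 genes were at least 10 times lower in sgDAMP. HYOU1 overlaps the antisense gene HYOU1-AS1, and since no source used here says how strand was counted, reads of the pair cannot be told apart.

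DNAJB9 had 488, 552 and 566 footprints in sgDAMP libraries, against 705, 835 and 805 in sgControl libraries. Its ratio of 0.661 (95% interval 0.620 to 0.704) was just past the 1.5-times line and on the other side of it, at 0.774, under total-count scaling; without the first sgDAMP footprint library its log2 of -0.58 also fell short of the line. In Scramble libraries it had 12, 9 and 1 footprints, too few to rank its level there. SDF2L1 stood at 88.5, 86.1 and 91.6 coding CPM in sgDAMP libraries and 83.4, 88.1 and 82.4 in sgControl libraries, which overlapped, with a ratio of 0.865 (95% interval 0.803 to 0.932) that became 1.01 under total-count scaling. Scramble libraries held 13, 21 and 3 SDF2L1 footprints.

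The HSPA5 footprints carried a limit of their own. Counts stood at 2290, 2671 and 2561 in sgDAMP libraries, 1999, 2114 and 2194 in sgControl libraries and 622, 420 and 203 in Scramble libraries. In coding CPM these were 483, 509 and 490 in sgDAMP and 368, 341 and 357 in sgControl. The Scramble libraries were the highest on that scale, at 2606, 2079 and 2447, for counts on HSPA5 alone. The pseudogene HSPA5P1, a copy of HSPA5, was given 15195 footprints over the sgDAMP libraries and 15155 over the sgControl libraries, against 13 over the Scramble libraries. Its mRNA counts were 0 in sgDAMP, 0 in sgControl and 2 in Scramble. Of the footprints counted on gene and copy together, the copy took 66.9% in sgDAMP, 70.6% in sgControl and 1.03% in Scramble. The HSPA5 ratio of sgDAMP over sgControl was 1.15 (95% interval 1.11 to 1.19), a log2 of 0.20, and the log2 became 0.03 with the copy's footprints added. The copies of HSP90B1 and PDIA3 took under 1% of the footprints of their genes in every condition.

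**Figure D2:**
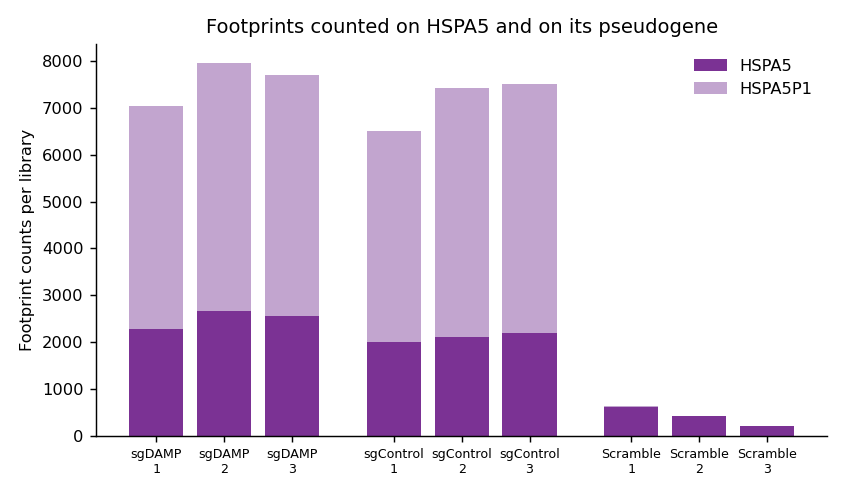
Footprint counts per library on HSPA5 (dark) and on its pseudogene HSPA5P1 (light), stacked, for the 3 libraries each of sgDAMP, sgControl and Scramble. The copy takes 66.9% of the sum in sgDAMP, 70.6% in sgControl and 1.03% in Scramble.

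Footprints of HSP90B1 and of the lectin chaperones differed little between the CRISPR groups. HSP90B1 stood at 2122, 2108 and 2098 coding CPM in sgDAMP libraries, 1824, 1792 and 1829.8 in sgControl libraries and 1776, 1149 and 1904 in Scramble libraries. CALR stood at 2462, 2422 and 2393 coding CPM in sgDAMP libraries, 1980.3, 2048 and 2051 in sgControl libraries and 2635, 2386 and 1591 in Scramble libraries. CANX stood at 2608, 2660.1 and 2625 coding CPM in sgDAMP libraries, 2448, 2476 and 2482 in sgControl libraries and 2166, 2005 and 2314 in Scramble libraries. On this scale the sgDAMP libraries lay above the sgControl libraries for all 3 genes. With TMM scaling the order turned: the ratios were 0.960 (95% interval 0.945 to 0.975) for HSP90B1, 0.987 (0.973 to 1.002) for CALR and 0.880 (0.869 to 0.893) for CANX, while total-count scaling gave 1.12, 1.16 and 1.03. A difference of this size therefore rests on the scaling, and total-count scaling moved the median of all genes by 0.23 on the log2 scale.

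Among the isomerases, PDIA3 stood at 620.2, 614 and 599 coding CPM in sgDAMP libraries, 499, 491 and 492 in sgControl libraries and 222, 193 and 205 in Scramble libraries. PDIA4 stood at 106, 106 and 115 coding CPM in sgDAMP libraries, 78.1, 83.1 and 84.8 in sgControl libraries and 1369.9, 1545 and 1434 in Scramble libraries. PDIA6 stood at 158, 162 and 168 coding CPM in sgDAMP libraries, 116, 122 and 112 in sgControl libraries and 2019, 2426 and 1579 in Scramble libraries. In coding CPM the libraries of the 3 conditions did not overlap for any of these genes. Scramble was the lowest for PDIA3 and the highest for PDIA4 and PDIA6. The sgDAMP libraries count as 1 sample, as do the sgControl libraries, so their gap is not one between replicates. The share of all genes with such gaps was not counted. With TMM scaling the ratios of sgDAMP over sgControl were 1.02 (95% interval 0.993 to 1.05) for PDIA3, 1.095 (1.02 to 1.18) for PDIA4 and 1.15 (1.09 to 1.22) for PDIA6. Leaving out HYOU1, the ratios of the other 9 genes ran from 0.661 to 1.15; the interval lay above 1 for 3 genes, below 1 for 4 and held 1 for 2.

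**Figure D3:**
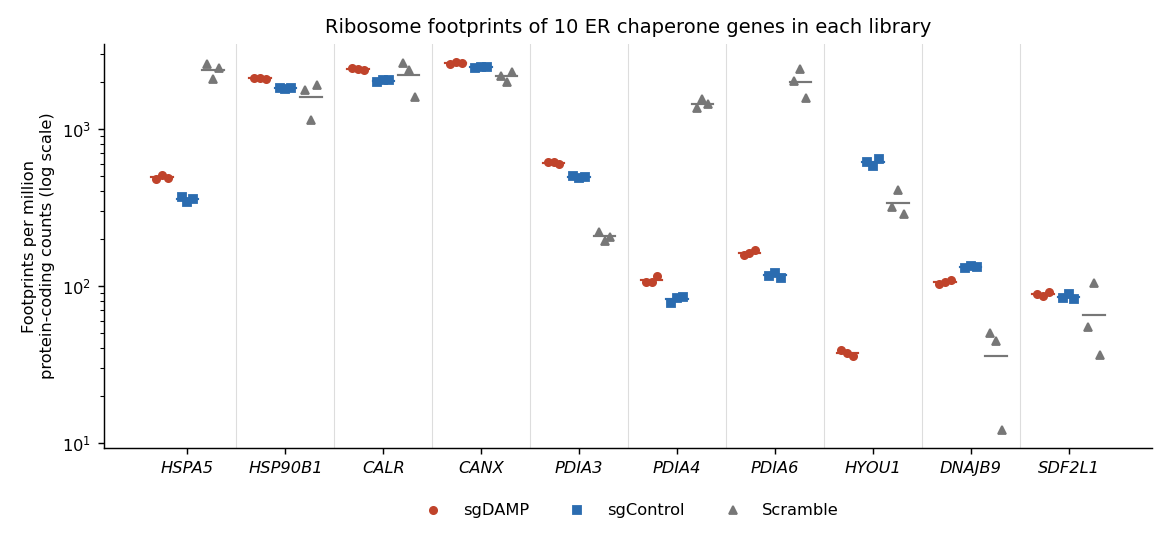
Footprints of the 10 ER chaperone genes in coding CPM (CPM relative to protein-coding footprint counts) on a log axis, with 1 point per library and a line at the mean of each condition. HYOU1 stands at 35.8 to 38.8 in sgDAMP, 584 to 649 in sgControl and 289 to 406 in Scramble. HSPA5 (counted without HSPA5P1), PDIA4 and PDIA6 are highest in Scramble.

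Footprints of the 10 genes together took 0.872% to 0.881% of protein-coding footprints in sgDAMP libraries, 0.814% to 0.827% in sgControl libraries and 1.18% to 1.32% in Scramble libraries. Without HYOU1 these shares were 0.869% to 0.877% in sgDAMP, 0.753% to 0.762% in sgControl and 1.15% to 1.29% in Scramble. With TMM scaling, 4 of the 10 log2 ratios of sgDAMP over sgControl were above 0 and 6 below, with a median of -0.04. Under total-count scaling the ratios lay below 1 for HYOU1 (0.0587) and DNAJB9 (0.774) and above 1 for the other chaperones. Whether the chaperones lay higher in sgDAMP than in sgControl thus depended on the scaling. The summed share itself was not scaled by TMM.

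Footprints relative to mRNA, often called translational efficiency, put both assays into 1 model and asked whether the footprint difference between sgDAMP and sgControl exceeded the mRNA difference. HYOU1 was the only 1 of the 10 chaperones to pass, with a log2 interaction of -3.86 (SE 0.70, edgeR adjusted p = 0.0193), beside 50 of 19357 genes (0.258%) that passed in either direction. In the separate comparisons above, each with its own filter and scaling, the mRNA change was -0.43 and the footprint change -4.32. The summed footprint samples had no spread of their own in this model and were assumed to vary like the mRNA libraries. The call was lost without the first sgDAMP mRNA library (log2 -3.72, edgeR adjusted p = 0.0899) and without the third (log2 -3.75, edgeR adjusted p = 0.0557), and it held in the other 19 of 21 alternatives, with adjusted p-values from 1.24e-05 to 0.0899 over all of them. DNAJB9 had a log2 interaction of -1.05 (SE 0.87, edgeR adjusted p = 1), which ran from -1.78 to -0.64 with 1 library left out. The other 8 genes lay between -0.36 for HSP90B1 and 0.40 for CALR, and the median over the 10 was -0.02, beside 0.0019 over all genes.

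**Figure D4:**
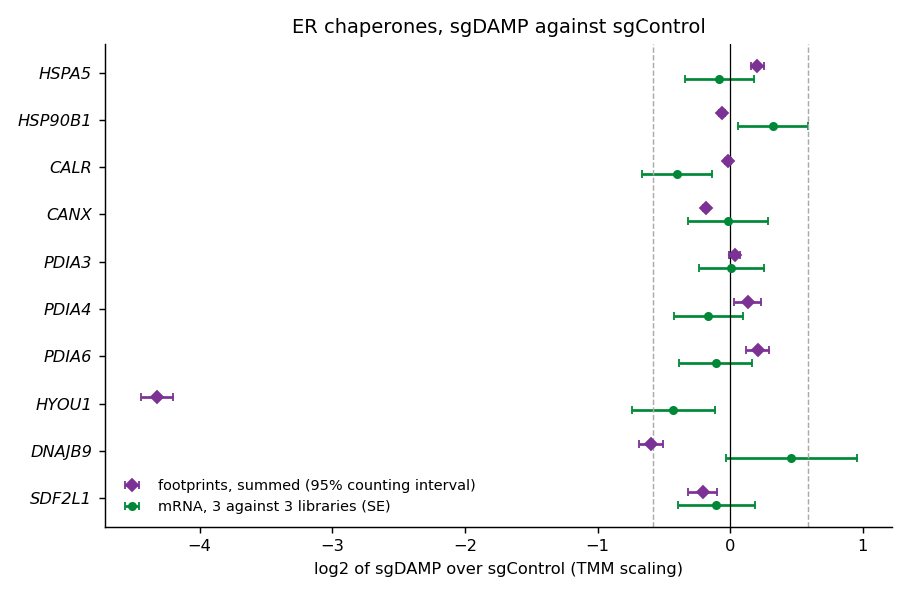
Log2 of sgDAMP over sgControl for each chaperone, with footprints as diamonds (summed counts, bars the 95% counting interval) and mRNA as circles (3 against 3 libraries, bars the SE); dashed lines mark 1.5 times. HYOU1 is at -4.32 in footprints and -0.43 in mRNA, and DNAJB9 at -0.60 in footprints and 0.46 in mRNA.

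Related genes were counted from 5 lists of the same organelle and of other chaperones. In mRNA and in footprints relative to mRNA, none of the listed genes passed edgeR's adjusted p under 0.05 between sgDAMP and sgControl. In footprints, of 40 other ER folding genes 7 were at least 1.5 times higher in sgDAMP and 0 lower; of 14 sensors and factors of the unfolded protein response, 2 were higher and 1 lower; of 18 genes of ER-associated degradation, 2 were higher and 0 lower. Of 26 genes of translocation and glycosylation 1 was higher and 0 lower, and of 17 cytosolic and mitochondrial chaperones 0 were higher and 2 lower. Each of these shares was below the 18.7% higher and 15.6% lower found over all genes. Thinly covered genes are among those counted. Of the 7 higher folding genes, only GANAB and ERO1A reached a mean log2 CPM of 3. Both higher factors of the unfolded protein response had few footprints, 29 and 37 in sgDAMP against 10 and 12 in sgControl.

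The well covered genes past 1.5 times were these. GANAB, the catalytic subunit of glucosidase II that prepares glycans for CALR and CANX, had 1892 footprints in sgDAMP, against 464 in sgControl (log2 1.98). ERO1A, the oxidase that recharges protein disulfide isomerases, had 389 in sgDAMP and 237 in sgControl (log2 0.66). ATF4, a transcription factor made when initiation factor eIF2 is phosphorylated, had 1608 in sgDAMP and 10078 in sgControl (log2 -2.70). ATF4 and HYOU1 were thus the members of these ER lists furthest below sgControl.

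The ER degradation genes DERL2, a derlin channel subunit, and AUP1, which recruits a ubiquitin-conjugating enzyme, had 454 and 527 footprints in sgDAMP, against 274 and 321 in sgControl (log2 0.68 and 0.66); without the first sgControl footprint library AUP1 stood at 0.55, short of 1.5 times. OST4, a small subunit of oligosaccharyltransferase, had 1220 in sgDAMP and 659 in sgControl (log2 0.84). In the cytosol, HSPH1, a nucleotide exchange factor of the same family as HYOU1, had 597 in sgDAMP and 929 in sgControl, and BAG3, an Hsp70 co-chaperone, had 2242 in sgDAMP and 3460 in sgControl. Under total-count scaling the ratios of HSPH1 and BAG3 were 0.726 and 0.732, short of 1.5 times.

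Within a condition, footprints were set against mRNA to see which chaperones held more of the footprints than of the mRNA. In sgDAMP cells 7 of 10 were higher in footprints and 1 lower at edgeR's adjusted p under 0.05, beside 38.3% and 29.5% of the 19357 genes tested; in sgControl cells the counts were also 7 and 1, beside 39.3% and 30.4%. In Scramble cells 6 were higher and 1 lower, beside 17.1% and 27.4% of 14432 genes. The median log2 of footprints over mRNA among the chaperones was 2.05 in sgDAMP, 2.31 in sgControl and 0.86 in Scramble, beside 0.20, 0.19 and -0.68 over all genes. In sgDAMP and in sgControl the footprints were 1 summed sample, assumed to vary like the mRNA libraries. Only in Scramble did 3 footprint libraries enter the test. The log2 values rest on a scaling over both assays together. In Scramble cells, total-count scaling moved the median gene by -2.85 and turned 8 of the 10 chaperones to the opposite side, with 0 higher and 7 lower. Requiring at least 10 counts in every Scramble library left 3 chaperones higher and 2 lower there, with HSPA5 at -0.38, CANX at -0.26 and HYOU1 at -0.75, on the opposite side, and HSP90B1 at 0.02.

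HSP90B1 had the largest excess of the 10 in CRISPR cells. Its log2 of footprints over mRNA was 5.46 in sgDAMP (SE 0.37, edgeR adjusted p = 1.23e-08), 5.87 in sgControl (SE 0.37, edgeR adjusted p = 5.72e-09) and 1.003 in Scramble (SE 0.25, edgeR adjusted p = 0.00196). CANX reached 3.91 in sgDAMP, 4.10 in sgControl and 0.72 in Scramble, and DNAJB9 3.82 in sgDAMP, 4.90 in sgControl and -0.52 in Scramble, where it was not called. The CANX call in Scramble was lost without the first Scramble footprint library (0.56, edgeR adjusted p = 0.111) or the second (0.63, edgeR adjusted p = 0.0658). For these genes the mRNA levels were low in CRISPR cells and high in Scramble cells, while HSP90B1 and CANX footprints in coding CPM were of like size in all conditions. CALR was steadier, at 2.65 in sgDAMP, 2.29 in sgControl and 2.25 in Scramble, and it passed the test in all 3 conditions.

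HYOU1 stood on opposite sides in the CRISPR groups. Its footprints were below its mRNA in sgDAMP (log2 -1.59, SE 0.51, edgeR adjusted p = 0.0113) and above it in sgControl (log2 2.32, SE 0.42, edgeR adjusted p = 0.000139), with 0.24 in Scramble (SE 0.22, edgeR adjusted p = 0.360), or -0.04 there without the second footprint library and -0.75 with at least 10 counts in every library. The difference between sgDAMP and sgControl is the interaction given above. HSPA5 had a log2 of 1.44 in sgDAMP, 1.18 in sgControl and 0.61 in Scramble, the last not called but passing without the third Scramble footprint library (0.60, edgeR adjusted p = 0.000944); the sgControl call was lost without the second sgControl mRNA library (log2 1.06, edgeR adjusted p = 0.0645). With HSPA5P1 footprints added, the HSPA5 values were 3.04 in sgDAMP, 2.95 in sgControl and 0.62 in Scramble.

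The isomerases divided by condition. PDIA3 footprints exceeded mRNA in sgDAMP and in sgControl by the same log2 of 2.83 and lay below it in Scramble (-0.77, SE 0.23, edgeR adjusted p = 0.00799), a call lost without the first Scramble mRNA library (-0.62, edgeR adjusted p = 0.0802) or the third (-0.52, edgeR adjusted p = 0.128). PDIA4 went the other way, with -0.72 in sgDAMP (not called), -0.995 in sgControl (edgeR adjusted p = 0.0447) and 2.17 in Scramble. The PDIA4 call in sgControl was lost without the third sgDAMP mRNA library, any 1 sgControl mRNA library or the first sgControl footprint library, with edgeR adjusted p-values of 0.0509 to 0.0925. PDIA6 stood at 0.98 in sgDAMP (edgeR adjusted p = 0.0413), 0.69 in sgControl (not called) and 2.20 in Scramble, and its sgDAMP call was lost without the first or the third sgDAMP mRNA library, the second sgControl mRNA library or any 1 sgDAMP footprint library, with edgeR adjusted p-values of 0.0533 to 0.136. ATP6V1C2, which overlaps PDIA6, had 29 mRNA counts in sgDAMP, 9 in sgControl and 6320 in Scramble. SDF2L1 was called in Scramble alone (1.35, SE 0.34, edgeR adjusted p = 0.00236), and not without the second Scramble footprint library (0.73, edgeR adjusted p = 0.213). Whether the effect of assay differed between Scramble and the other conditions was not tested.

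**Figure D5:**
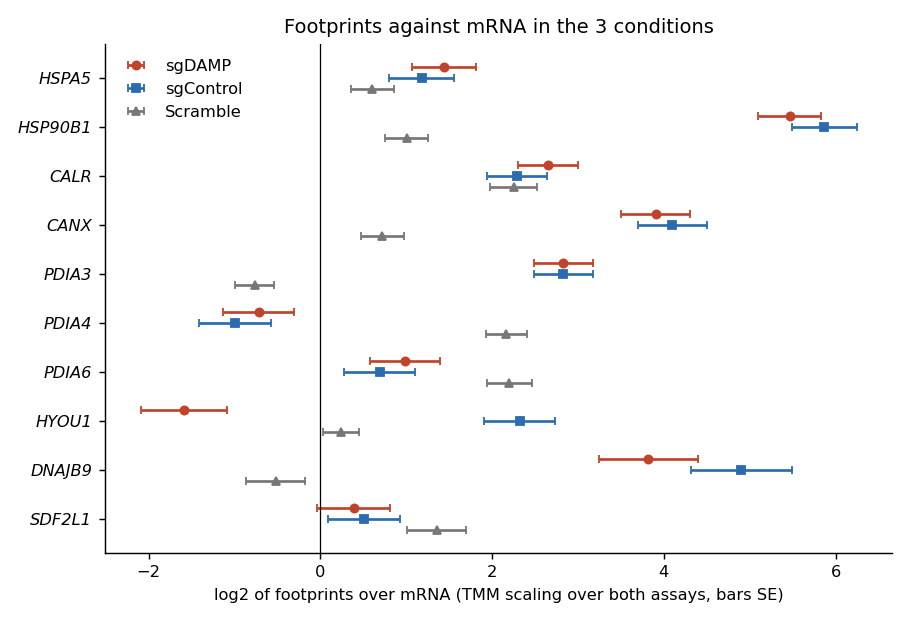
Log2 of footprints over mRNA for each chaperone in sgDAMP (circles), sgControl (squares) and Scramble (triangles), with bars of 1 SE and a solid line at 0. HYOU1 is at -1.59, 2.32 and 0.24 in that order, and PDIA3 and PDIA4 change sides between Scramble and the CRISPR groups.

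The genes whose profile over the 18 libraries lay closest to that of HSPA5 as counted were not chaperones, and which genes these were rested on the HSPA5P1 copy. By the root mean square distance of log2 CPM, centred within each assay, over 12048 protein-coding genes, the 5 nearest included ADAM17 (0.162), EIF3A (0.220), USP32 (0.264) and BRD7 (0.269). Among the other chaperones PDIA6 came nearest, at rank 599 (0.546), and SDF2L1 last, at rank 10183 (1.79). With the counts of HSPA5P1 added to HSPA5, 0 of the 5 nearest genes were the same, again with 0 chaperones among them, and CANX came nearest of the chaperones, at rank 85 (0.411), before HSP90B1 at rank 606 (0.584), while PDIA6 stood at rank 4398 (1.05).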

How the data were processed

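The 18 libraries hold oligo(dT)-enriched mRNA or ribosome footprints of NCI-H1975 cells (sgDAMP, sgControl and Scramble, 3 libraries per condition and assay). Per the submitters' processing notes, the tools named are HISAT2 2.1.0, Trimmomatic 0.30, HTSeq 0.11.2, SAMtools 1.10 and edgeR, with no role or order given, and the build is GRCh38. The deposited values are raw read counts per gene as the authors' HTSeq run gave them, for 61487 genes, with 5 closing lines that were left out of library sizes. These lines hold the reads assigned to no gene, 22.2% to 95.8% of a library. The annotation release, strand setting and treatment of multi-mapped reads are not stated in the labels, so copies and overlapping genes are uncertain. Gene symbols came from a RefSeq gene table and a gene name table, which named 42045 of the IDs, 19156 of them protein-coding.

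The members and gene lists were chosen with earlier results of these data known. Genes were filtered with filterByExpr (minimum count 10), scaled by TMM and tested with edgeR 4.0.16 (quasi-likelihood F test, R 4.3.3), two-sided, with Benjamini-Hochberg adjustment over all genes tested and a threshold of 0.05. Each SE, also in the figures, is the absolute log2 value divided by the square root of the F statistic. The script was tested on simulated data. Footprint libraries of sgDAMP and of sgControl agreed within sampling noise for most genes (chi-square per degree of freedom had a median of 0.644 in sgDAMP and 0.660 in sgControl and was over 3 for 4.62% and 4.44% of genes, where sampling noise alone gives 4.98%; the mean was 1.004 and 1.57, with HYOU1 at 10.2, CALR at 3.39 and HSPA5 at 3.29 in sgControl), so each set was summed to 1 sample, given as a ratio with a 95% exact Clopper-Pearson interval and called at 1.5 times. Libraries carry no molecular identifiers, so these intervals cover counting error only. Translational efficiency used 6 mRNA libraries and 2 summed footprint samples with TMM within each assay; footprints against mRNA used TMM over both assays, in Scramble with 3 libraries each.

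Named were the 10 chaperones, DSP-AS1, the 5 protein-coding genes nearest to HSPA5 (1 of them is not reported here), and up to 4 called genes per related list whose mean log2 CPM reached 3, here for sgDAMP against sgControl only. Alternatives were DESeq2 1.42.0 size factors and its Wald test, scaling by upper quartile or total count, a filter of 10 counts per library or none, a replicate block, footprint libraries as replicates, a 2-times call, protein-coding genes alone and each library left out. Adding pseudogene copies to their gene was chosen after seeing the data.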

Additional observations from a re-analysis of the deposited data

Results flagged for a closer look

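HYOU1 is given here because its change differed between the assays: the log2 interaction of footprints and mRNA between sgDAMP and sgControl was -3.865 (edgeR adjusted p = 0.0193), with a footprint log2 ratio of -4.32 and an mRNA log2 change of -0.43.

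PDIA3, PDIA4 and DNAJB9 are given because their footprints and mRNA lay on opposite sides in Scramble and in sgControl cells, in every library of each. How many of all genes do the same was not counted, and the sgControl footprint libraries count as 1 sample. On the scale of mean coding CPM (CPM relative to protein-coding counts), the log2 of footprints over mRNA in Scramble was -1.003 for PDIA3, 1.956 for PDIA4 and -0.9963 for DNAJB9, while every sgControl library lay the other way; the difference was not tested. DNAJB9 rests there on 12, 9 and 1 footprints in the Scramble libraries. The Scramble footprint libraries also held 6.37% to 20.2% protein-coding counts, against 78.9% to 79.3% in sgControl, and the part of this in the difference was not tested.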

How the results depend on the processing

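Between sgDAMP and sgControl, HYOU1 footprints kept their direction and stayed past 1.5 times under every alternative run. In mRNA the 0 genes called became 14 with no filter, 12 with the DESeq2 Wald test, 4 with the replicate block and 0 to 6 with 1 library left out, with 0 chaperones in each. mRNA log2 changes near 0 turned sign: PDIA3 to -0.029 with DESeq2 size factors and -0.0145 with the replicate block, HSPA5 to 0.0155 and CANX to 0.076 with upper-quartile scaling, HSPA5 to 0.0675, CANX to 0.11, PDIA6 to 0.026 and SDF2L1 to 0.018 with total-count scaling (which moved the median of all genes by 0.13), and CANX to 0.015 with at least 10 counts per library. With 1 library left out, mRNA values ran from -0.17 to 0.27 for CANX, -0.037 to 0.022 for PDIA3, -0.35 to 0.0010 for PDIA6, -0.31 to 0.094 for SDF2L1, 0.040 to 1.19 for DNAJB9, -0.23 to -0.0032 for HSPA5, 0.18 to 0.39 for HSP90B1 and -0.25 to -0.063 for PDIA4. 

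In footprints, the 2 lower chaperones became 1 with upper-quartile scaling, total-count scaling and the 2-times call, and 1 to 2 with 1 library left out. With footprint libraries as replicates, called at edgeR's adjusted p under 0.05 and not by fold, 3 were higher and 5 lower. That test takes its spread from libraries that are counted here as 1 sample. The 5528 genes past 1.5 times became 12264 with no filter, 2858 at 2 times and 3212 among protein-coding genes alone. In footprints relative to mRNA, PDIA3 turned to -0.0146 with upper-quartile scaling and SDF2L1 to 0.0011 with total-count scaling and to between -0.31 and 0.13 with 1 library left out; the chaperones lower were 0 to 1. The 50 genes became 451 with footprint libraries as replicates and 207 with a replicate block added.

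For footprints against mRNA in sgDAMP, chaperones lower were 2 with upper-quartile scaling, total-count scaling and libraries as replicates, SDF2L1 turned to -0.030 and -0.0446 with these 2 scalings (medians moved by -0.40 and -0.44), and 6621 genes were called with at least 10 counts. In sgControl, chaperones lower were 0 with DESeq2 size factors and no filter and 0 to 1 with 1 library left out, SDF2L1 turned to -0.0457 with total-count scaling (median moved by -0.55), and 6864 genes were called with at least 10 counts. In Scramble, total-count scaling called 13530 genes, with 0 chaperones higher and 7 lower, and gave HSPA5 -2.19, HSP90B1 -1.84, CALR -0.45, CANX -2.09, PDIA4 -0.62, PDIA6 -0.53, HYOU1 -2.54 and SDF2L1 -1.50. With at least 10 counts, which tests fewer genes, 1143 were called, 3 chaperones higher and 2 lower, with HSPA5 -0.38, CANX -0.26 and HYOU1 -0.75. With 1 Scramble library left out, chaperones lower were 0 to 1 and HYOU1 ran from -0.039 to 0.45. Where no cause is given, the cause was not tested.

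Same-numbered sgDAMP and sgControl mRNA libraries showed correlations of deviations of 0.475, -0.347 and -0.556, which were of mixed sign. Between footprint and mRNA libraries of Scramble these were -0.016, -0.086 and -0.099. The samples were not treated as paired in the main tests, and whether the numbers pair them was not tested. The replicate block changed the call of no chaperone. The depth of Scramble footprints limits DNAJB9, SDF2L1 and PDIA3 most.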
